A study of Mus musculus with 16 samples.

Results

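Transcripts of the synaptic vesicle and of the machinery that fuses it with the presynaptic membrane were followed in brain RNA of wild-type mice and of mice homozygous for the V338Y knock-in of Mrps5, which encodes a mitochondrial ribosomal protein. The 41 genes were given as a list of names, chosen by function with earlier results of these data known, and all 41 were found among the 39179 gene identifiers of the count table. By role they comprised 10 vesicle membrane proteins, 6 calcium sensors, 3 vesicular transporters, 4 genes of the Rab3 group, 8 of the SNARE group, 6 active zone proteins and 4 endocytic proteins. RNA was sequenced from 16 mice, 4 of each genotype at 3 and at 19 months of age (WT 3m, V338Y 3m, WT 19m and V338Y 19m). The study describes the mutation as one that lowers the accuracy of mitochondrial translation, the mice as C57/BL6 and the tissue as total cortex, while the deposited labels give the tissue as brain. Every cell of the V338Y animals carries the replacement from birth, and counts per gene do not tell the wild-type from the V338Y allele.

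A presynaptic terminal releases transmitter when vesicles that are loaded by transporters and held at the active zone fuse with the membrane. Fusion is driven by SNARE proteins, which are Vamp on the vesicle and Snap25 and syntaxin on the plasma membrane, and it is triggered when calcium binds synaptotagmins. The membrane is then retrieved by dynamin and its partners, and the vesicle is refilled. Most of these proteins have paralogs whose use differs between brain regions and between excitatory and inhibitory neurons, so that the mix of paralogs in a bulk sample also depends on which neurons it holds.

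The libraries of the 2 ages differed in more than age. Total counts were between 6181448 and 19601664 per mouse, and the 41 genes took 1.35 to 1.48% of them at 3 months and 1.204 to 1.312% at 19 months. Transcripts of 4 Y-linked genes had 2019 to 4809 counts in the mice of 3 months and 0 in all mice of 19 months (up to 3 counts per library cannot be told from 0), and Xist had 5 to 20 counts against 6331 to 14860, although the study describes all animals as female; sex-linked transcripts and age cannot be told apart here. The summed level of 10 cerebellum markers was 589 to 1060 CPM (counts scaled to library size after TMM normalisation) in WT 3m, 31.1 to 40.3 in WT 19m and 35.9 to 45.2 in V338Y 19m, and none of the 10 was at 0 in any group. In V338Y 3m it was 1280, 1820 and 1160 in mice 13, 15 and 16 but 56.8 in mouse 14 (mice are named by their numbers in the labels). The 6 brainstem markers were also higher in the other young mice than in mouse 14 and the old mice, with 16.5 to 25.8 CPM in WT 3m, 0.71 in mouse 14 and 16.4 to 26.6 in the other V338Y 3m mice, against 0.319 to 0.818 in WT 19m, where 4 of the 6 were at 0, and 1.29 to 4.12 in V338Y 19m. The 11 markers of neurons at large summed to 4350 to 4890 CPM in all groups, but single markers moved apart: with age 7 fell and 3 rose in wild type (median log2 fold change -0.44, range -0.90 to 0.44) and 6 fell and 2 rose in V338Y (median -0.23). The median of the 41 release genes, given below, was nearer to 0 than that of these neuron markers in both genotypes. The 9 markers of cortical excitatory neurons summed to 803 to 1110 CPM at 3 months and 1370 to 1810 at 19 months, with 5 higher and 2 lower in wild type (range -0.61 to 1.46) and 4 higher and 1 lower in V338Y. The 7 markers of interneurons summed to 892 to 909 CPM in WT 3m, 638 to 671 in WT 19m, 922 to 1020 in V338Y 3m and 652 to 714 in V338Y 19m. In each genotype 4 of them were called lower with age and 0 higher. Beside these marker counts, 31.5% of all genes were called lower and 31.4% higher in wild type, and 25.7% and 23.1% in V338Y. The markers of astrocytes summed to 2780 to 3590 CPM at 3 months and 5850 to 7120 at 19 months. In bulk RNA, fewer cells of a type and less RNA per cell cannot be told apart. Unless a value bears on it below, the part of these differences in each result was not tested.

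Per kb of exon, Snap25, the SNARE of the plasma membrane, had the highest level of the 41 genes with a mean of 182.9 CPM per kb over the 16 mice. It was followed by Dnm1 (dynamin 1) with 145.4, Rab3a with 140.5, Syt1 with 138.1 and Syp (synaptophysin) with 124.8 CPM per kb. Slc17a7, the vesicular glutamate transporter of most cortical excitatory neurons, stood at 91.05 and Rims1, the most abundant active zone member on this scale, at 41.29 CPM per kb. At the other end were Sv2c with 2.918 and Syn3 with 1.616 CPM per kb. Of the Syn3 exons, 1733 bases are shared with Timp3 on the opposite strand, a gene with a mean count of 2249 against 261.4 for Syn3, so that the level of Syn3 is uncertain if reads were counted without regard to strand.

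Promoters are shown for Pclo and Syn1, which were among the 4 largest rises with age in both genotypes, and for Rab3a, which was among the 4 largest falls in both. They are the RefSeq windows of GRCm38.p6 before the start of transcription, 5′ to 3′ on the strand of the gene, without bases that the GENCODE annotation places inside the gene, and capitals mark a GC box or a cAMP response element on either strand. For Bsn and Syt2 the window overlaps exons of other genes and is not shown.
Pclo (chr5:14514668-14514917, + strand): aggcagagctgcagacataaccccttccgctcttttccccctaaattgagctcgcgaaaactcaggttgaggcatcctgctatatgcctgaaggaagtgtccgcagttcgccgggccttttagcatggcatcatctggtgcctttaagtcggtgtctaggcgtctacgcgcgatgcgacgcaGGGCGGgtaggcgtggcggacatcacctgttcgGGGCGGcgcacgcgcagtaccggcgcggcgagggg
Syn1 (chrX:20921005-20921168, - strand): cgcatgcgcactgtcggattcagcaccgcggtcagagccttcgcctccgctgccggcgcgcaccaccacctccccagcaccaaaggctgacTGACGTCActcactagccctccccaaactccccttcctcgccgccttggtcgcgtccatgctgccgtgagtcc
Rab3a (chr8:70754453-70754678, + strand): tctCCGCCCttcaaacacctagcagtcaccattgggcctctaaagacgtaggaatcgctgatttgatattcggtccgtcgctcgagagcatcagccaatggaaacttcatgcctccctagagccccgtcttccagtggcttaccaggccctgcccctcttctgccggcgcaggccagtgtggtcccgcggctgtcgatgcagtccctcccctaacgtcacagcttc

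The capitals in Pclo are GC boxes that begin 68 and 35 bases before the start, those in Syn1 a cAMP response element that begins 159 bases before it, and those in Rab3a the reverse complement of a GC box. RefSeq windows of 300 bases (250 before the start and 50 after it) were found for 33 of the 41 genes. The GC box GGGCGG was present on either strand in 78.8% of these 33 genes and in 66.7% of the 11745 genes with a window that were tested in wild type. The cAMP response element TGACGTCA was found in 2 of the 33, Syn1 and Sh3gl2, or 6.06% against 3.49%. An EGR site, GCGGGGGCG, which can overlap a GC box, was found in 4 (Cplx1, Sh3gl2, Syn2 and Syngr1; 12.1% against 6.42%), and the E-box CACGTG in Nsf and Sv2b (6.06% against 11.2%). These are matches of letters, and their part in the levels was not tested.

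In wild-type mice most release genes were lower at 19 than at 3 months, while the giant scaffolds of the active zone, Bsn and Pclo, and the vesicle protein Syn1 were higher. With the cerebellum marker level as a covariate, which follows age closely in wild type, 11 of the 34 genes called there turned sign, Bsn (-0.21) and Syn1 (-0.93) among them, 22 kept their sign without passing the test and 1 kept its call. Of the 11, Rims2 passed the test in the other direction (1.89, adjusted p = 0.0398). Of the 41 genes, 26 fell and 8 rose at an adjusted p under 0.05 and 7 did not pass the test; 63.4% were thus lower and 19.5% higher, beside 31.5% lower and 31.4% higher among all 16101 genes tested. The median log2 fold change of the 41 was -0.21, that of all genes -0.01. In V338Y, 17 fell, 4 rose and 20 did not pass, that is 41.5% and 9.76% beside 25.7% and 23.1% of all 16770 genes tested, with a median of -0.15 against -0.03. All 21 genes called in V338Y were called in wild type in the same direction, and the other 13 called in wild type, 9 lower and 4 higher, did not pass in V338Y, where the median SE was 0.075 against 0.0456 in wild type. The difference between the age effects was tested for each gene over all 16 mice. An unadjusted p under 0.05 by edgeR was found for 5 of the 41, beside 1723 of all 16831 genes. After adjustment the difference passed for 0 of the 41 by edgeR, DESeq2 and the likelihood-ratio test, and for 0.0535% of all genes by edgeR. A call in wild type without one in V338Y is therefore no shown difference between the genotypes.

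**Figure D1:**
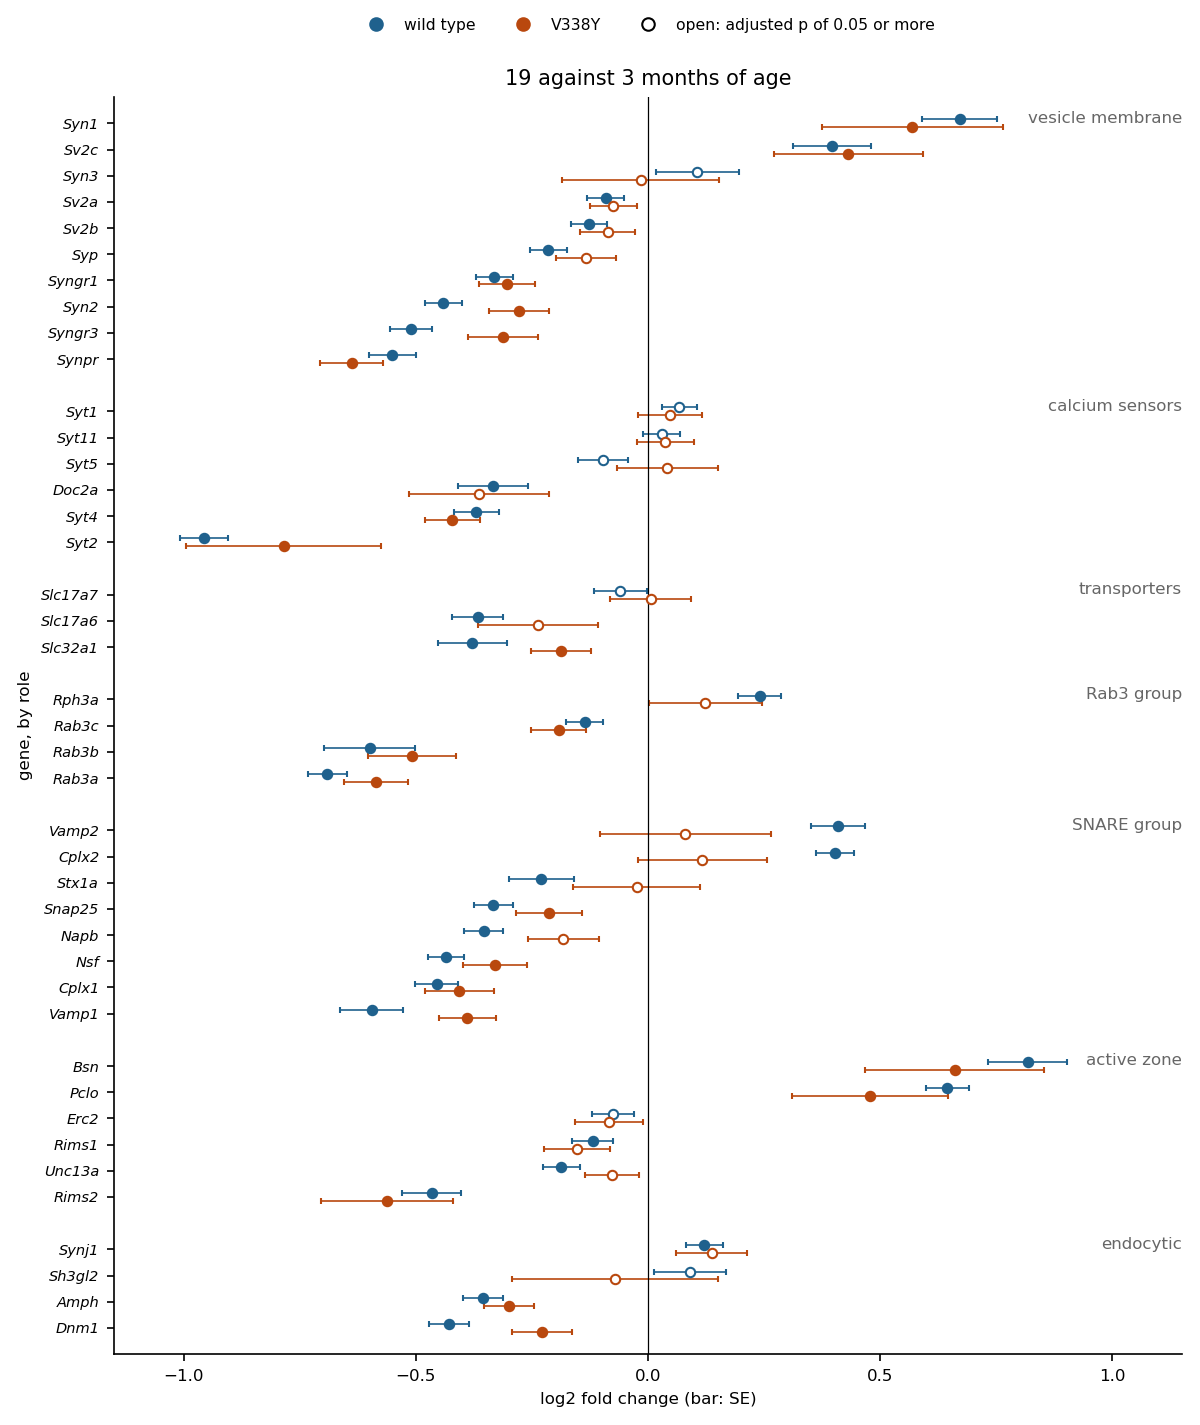
Log2 fold changes of the 41 genes at 19 against 3 months in wild type (blue) and V338Y (dark orange), grouped by role, with bars of 1 SE; filled points have an adjusted p under 0.05. The points of the 2 genotypes lie on the same side of 0 for all 21 genes called in both, with Syt2 farthest to the left at -0.96 in wild type and Bsn farthest to the right at 0.82.

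Among the calcium sensors, Syt2, a fast synaptotagmin of inhibitory and hindbrain synapses, had the largest fall of all 41 genes. It stood at 171.3, 172.4, 187.0 and 176.9 CPM in the WT 3m mice and at 96.3, 94.13, 82.46 and 80.0 in the WT 19m mice. The groups did not overlap, and Syt2 fell by 48.5% (log2 fold change -0.96 ± 0.05 SE, adjusted p = 2.7e-16). In V338Y the values were 188.5, 113.8, 240.3 and 181.4 CPM in mice 13 to 16 at 3 months and 97.83, 107.4, 112.9 and 99.62 at 19 months, and it fell by 41.9% (-0.78 ± 0.21, adjusted p = 0.0175). The single low young value, 113.8 CPM, came from mouse 14, the library with few cerebellum transcripts, and exceeded the highest V338Y 19m value by less than the spread of that group. Syt1, the main fast calcium sensor of the forebrain, was level by contrast, with group means of 1152 ± 16.4 (SD, n = 4), 1176 ± 19.9, 1124 ± 116 and 1155 ± 44.1 CPM in WT 3m, WT 19m, V338Y 3m and V338Y 19m. In single mice Syt1 was 1170, 1160, 1143 and 1134 CPM in WT 3m, 1191, 1150, 1192 and 1170 in WT 19m, 1091, 1295, 1043 and 1066 in V338Y 3m, and 1119, 1116, 1196 and 1190 in V338Y 19m. It did not pass the test in either genotype (0.07 ± 0.04 and 0.05 ± 0.07), and neither did Syt11, a synaptotagmin that does not sense calcium (0.03 ± 0.04 and 0.04 ± 0.06), or Syt5 (-0.10 ± 0.05 and 0.04 ± 0.11). Syt4, a synaptotagmin of dense-core vesicles, fell in both (-0.37 ± 0.05 and -0.42 ± 0.06), and the high-affinity sensor Doc2a fell in wild type (-0.33 ± 0.08) with -0.36 ± 0.15 and an adjusted p of 0.0695 in V338Y; 1103 exon bases of Doc2a are shared with Ino80e on the opposite strand.

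The Rab3 group carries vesicles to the active zone. Rab3a, its main member, had 401.3, 388.3, 379.2 and 374.5 CPM in WT 3m and 240.3, 228.4, 243.3 and 218.3 in WT 19m and fell by 38.0% (-0.69 ± 0.04, adjusted p = 5.96e-15). The V338Y mice had 402.2, 420.7, 352 and 345.6 CPM at 3 months and 249.9, 235.9, 259.1 and 263.4 at 19 months (-0.59 ± 0.07, adjusted p = 2.15e-05). Every old mouse was below every young one in both genotypes, and mouse 14 had the highest value of its group. Rab3b, a paralog of far lower level, was at 23.72, 33.33, 35.36 and 31.24 CPM in WT 3m and 20.38, 19.14, 22.56 and 17.94 in WT 19m (-0.60 ± 0.10), and at 32.92, 34.87, 25.23 and 32.13 against 22.99, 19.63, 22.6 and 22.62 in V338Y (-0.51 ± 0.10). Rab3c, a further vesicle Rab, fell by less (-0.14 ± 0.04 and -0.19 ± 0.06). Rph3a, the Rab3 effector rabphilin, moved the other way and rose by 18.2% in wild type (0.24 ± 0.05), with 0.12 ± 0.12 in V338Y, where the adjusted p was 0.43.

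All 8 genes of the SNARE group passed the test in wild type, 6 lower and 2 higher, where 31.5% and 31.4% of all genes did. Vamp1, the vesicle SNARE abundant in hindbrain and spinal cord, was at 204.4, 180.9, 205.7 and 167.1 CPM in WT 3m and 127.4, 128.9, 122.4 and 106.7 in WT 19m (it fell by 33.8%, adjusted p = 1.14e-06), and at 170.4, 177.1, 177.0 and 190.3 against 123.8, 141.4, 143.6 and 133.9 in V338Y (where it fell by 23.6%). Its forebrain paralog Vamp2 rose in wild type by 32.8% (0.41 ± 0.06, adjusted p = 1.08e-06), from 107.2, 99.06, 113.1 and 105.2 CPM to 121.4, 145.2, 147.0 and 134.8. In V338Y the Vamp2 values, 100, 122.8, 179.5 and 122.9 against 123.8, 128.2, 132.1 and 168.3 CPM, overlapped (0.08 ± 0.18). The complexins, which clamp and promote SNARE fusion, divided in the same way: Cplx1 fell in both genotypes (-0.46 ± 0.05 and -0.41 ± 0.07), while Cplx2 rose in wild type by 32.2% (0.40 ± 0.04) with 0.12 ± 0.14 in V338Y. Snap25 was at 1475, 1447, 1493 and 1411 CPM in WT 3m and 1157, 1044, 1192 and 1111 in WT 19m (-0.33 ± 0.04), and at 1374, 1361, 1289 and 1113 against 1025, 1108, 1129 and 1146 in V338Y (-0.21 ± 0.07, adjusted p = 0.0238). The groups were apart in wild type and overlapped in V338Y, where V338Y 3m mouse 16 lay within the old range. Nsf, the ATPase that takes spent SNARE complexes apart, fell in both (-0.44 ± 0.04 and -0.33 ± 0.07). Its adaptor Napb and the syntaxin Stx1a fell in wild type (-0.35 ± 0.04 and -0.23 ± 0.07), with -0.18 ± 0.08 and -0.02 ± 0.14 in V338Y, neither of which passed.

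Of the 6 active zone genes, 2 rose and 3 fell in wild type, beside 31.4% and 31.5% of all genes. In V338Y 2 rose and 1 fell, beside 23.1% and 25.7%. The median log2 fold change of the class was -0.10 in wild type and -0.08 in V338Y. Bsn, which encodes the scaffold bassoon, had 356.2, 335.1, 381.3 and 316.7 CPM in WT 3m and 510.6, 642.5, 622.8 and 607.4 in WT 19m, a rise of 76.2% (0.82 ± 0.09, adjusted p = 2.8e-05). In V338Y it was at 286.6, 374.2, 552.8 and 381.2 CPM at 3 months and 550.7, 600.9, 630.5 and 728.3 at 19 months (0.66 ± 0.19, adjusted p = 0.0233). Pclo, for the related scaffold piccolo, rose by 56.4% in wild type, from 301.2, 309.5, 355.9 and 328.5 CPM to 462.1, 508.1, 499.7 and 502.6, and by 39.3% in V338Y (adjusted p = 0.0451), from 287.1, 301.0, 492.2 and 370.7 to 465.4, 477.3, 502.0 and 567.2. For both genes the wild-type ages were apart, and in V338Y 1 young mouse, number 15, reached into the old range. Rims2, which tethers vesicles and calcium channels, went the other way (-0.47 ± 0.06 in wild type, -0.56 ± 0.14 in V338Y). Its values were 220.5, 288.7, 277.4 and 275.0 CPM in WT 3m, 190.2, 188.8, 179.5 and 192.4 in WT 19m, 297.6, 195.3, 333.3 and 278.2 in V338Y 3m, and 182.5, 179.7, 194.0 and 187.8 in V338Y 19m. Again the low young V338Y value, 195.3 CPM, was that of mouse 14. Rims1 was at 296.5, 330.6, 326.5 and 332.7 CPM in WT 3m and 278.6, 283.1, 291.2 and 302.9 in WT 19m (-0.12 ± 0.04, adjusted p = 0.0188), and at 327.4, 279.7, 350.5 and 320.3 against 267.8, 276.4, 299.4 and 300.3 in V338Y (-0.15 ± 0.07, adjusted p = 0.0932). The ages overlapped for Rims1 in both genotypes. Unc13a, which primes vesicles and shares 495 exon bases with Colgalt1 on the opposite strand, fell in wild type (-0.19 ± 0.04), and Erc2, a scaffold that binds Rims proteins, did not pass in either genotype (-0.07 ± 0.05 and -0.08 ± 0.07).

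**Figure D2:**
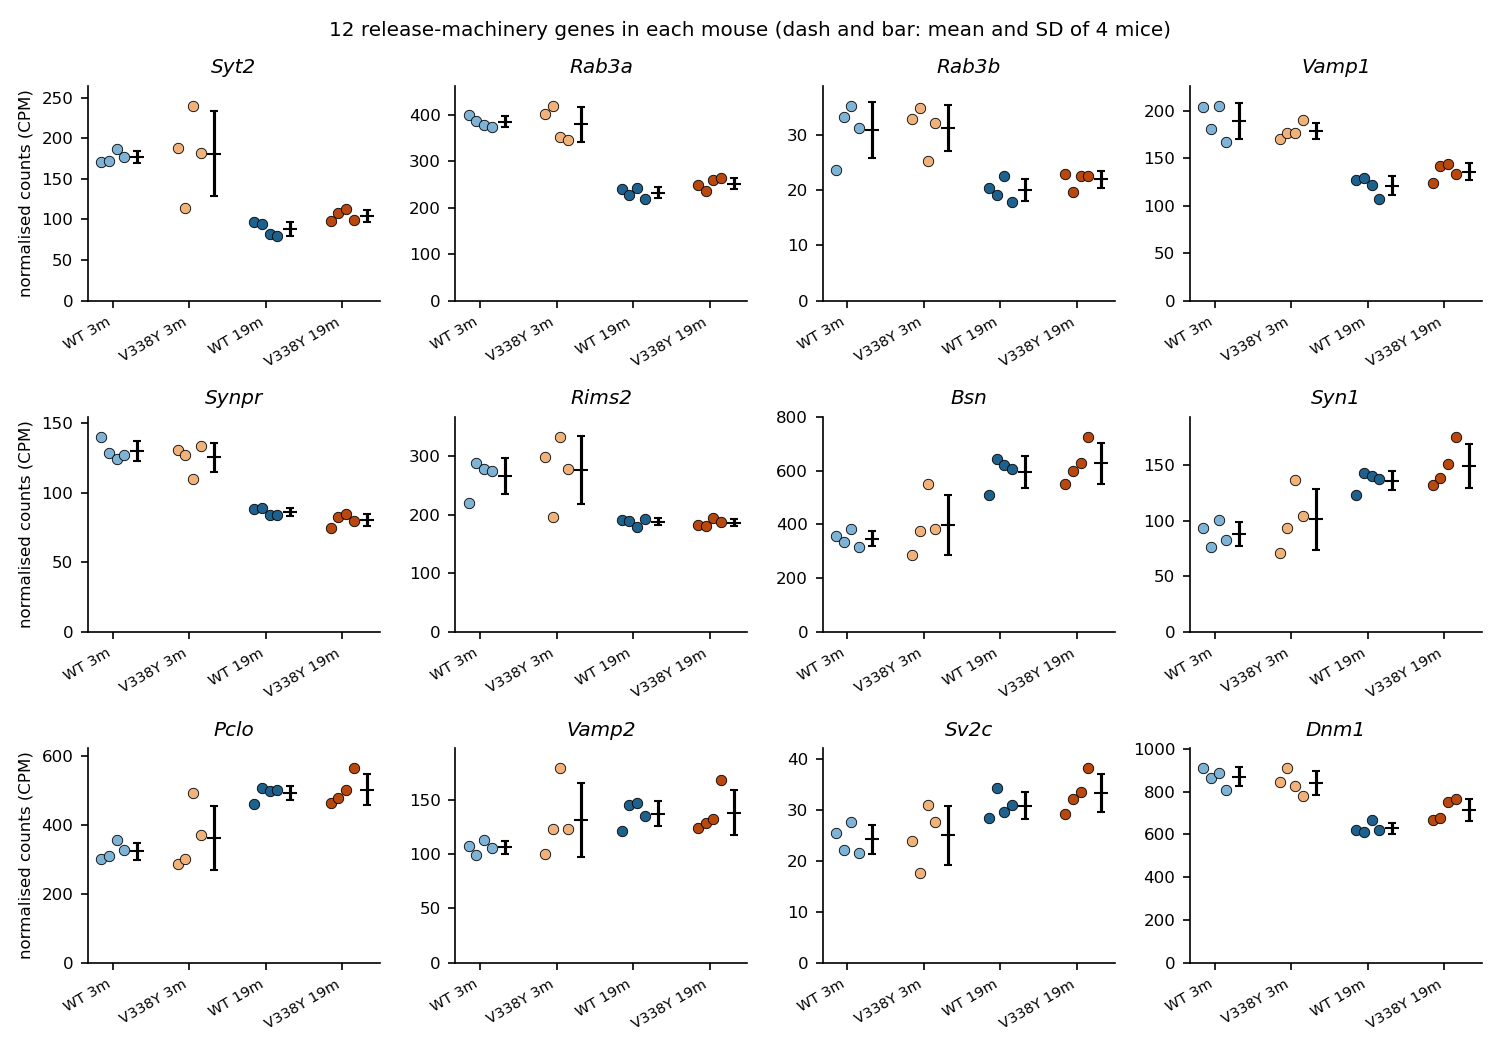
Normalised counts (CPM) of 12 genes in each of the 16 mice, one panel a gene and one point a mouse, with the mean and SD of each group of 4. In Syt2 and Rims2 one V338Y 3m mouse, with 113.8 and 195.3 CPM, lies near the old mice, and in Bsn, Pclo and Syn1 another one, with 552.8, 492.2 and 136.9 CPM, lies within the old range.

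Of the 10 vesicle membrane genes, 7 fell and 2 rose in wild type, beside 31.5% and 31.4% of all genes, and 4 fell and 2 rose in V338Y, beside 25.7% and 23.1%. Synpr (synaptoporin) had 140.3, 128.1, 124.2 and 126.8 CPM in WT 3m and 87.87, 89.15, 83.63 and 83.63 in WT 19m (-0.55 ± 0.05), and 130.7, 127.2, 110.1 and 133.6 against 74.34, 82.17, 84.6 and 79.3 in V338Y, where it had the most certain fall of the list (-0.64 ± 0.07, adjusted p = 8.72e-06). Its values did not overlap between the ages in either genotype. The synaptogyrins Syngr1 (-0.33 ± 0.04 and -0.30 ± 0.06) and Syngr3 (-0.51 ± 0.05 and -0.31 ± 0.08) and the synapsin Syn2 (-0.44 ± 0.04 and -0.28 ± 0.06) fell in both genotypes as well. Syp was at 737.0, 702.5, 699.9 and 677.0 CPM in WT 3m and 596.9, 583.5, 610.9 and 571.4 in WT 19m (-0.21 ± 0.04), and at 711.5, 761.3, 630.8 and 637.8 against 607.9, 599.2, 640.0 and 640.1 in V338Y, where it did not pass (-0.13 ± 0.07, adjusted p = 0.109). Syn1, the synapsin that ties vesicles into the reserve pool, rose in both: it was at 93.14, 76.51, 100.8 and 82.42 CPM in WT 3m and 123.6, 143.4, 140.8 and 137.6 in WT 19m (a rise of 59.2%), and at 70.64, 93.42, 136.9 and 104.4 against 132.0, 138.8, 151.1 and 176.1 in V338Y (48.4%, adjusted p = 0.0439). The low-level Sv2c rose too, from 25.44, 22.09, 27.57 and 21.58 CPM to 28.33, 34.35, 29.58 and 30.95 in wild type and from 23.84, 17.54, 30.88 and 27.6 to 29.16, 32.19, 33.51 and 38.28 in V338Y (0.40 ± 0.08 and 0.43 ± 0.16). Its paralogs Sv2a and Sv2b, glycoproteins of most vesicles, were slightly lower in wild type (-0.09 ± 0.04 and -0.13 ± 0.04, both past the test), and the synapsin Syn3 did not pass (0.11 ± 0.09).

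Of the 3 transporters that load vesicles with glutamate or GABA, 2 fell in wild type and 1 in V338Y, beside 31.5% and 25.7% of all genes. Slc17a7 did not pass in either genotype: it was at 543.0, 511.3, 485.1 and 438.8 CPM in WT 3m, 446.0, 467.9, 492.5 and 441.2 in WT 19m, 494.1, 558.6, 500.4 and 461.8 in V338Y 3m, and 427.0, 466.4, 552.1 and 568.5 in V338Y 19m. Slc17a6, the glutamate transporter of thalamus and brainstem, fell in wild type by 22.5% (-0.37 ± 0.05) with -0.24 ± 0.13 in V338Y, and Slc32a1, the transporter of GABA and glycine, fell in wild type by 23.1% (-0.38 ± 0.07) and in V338Y by 12.2% (-0.19 ± 0.06, adjusted p = 0.0282). Among the endocytic genes, Dnm1, the dynamin of neurons, fell from 912.3, 864.9, 888.9 and 808.3 CPM to 620.2, 608.6, 667.1 and 618.1 in wild type (-0.43 ± 0.04) and from 845.7, 912.4, 825.7 and 778.4 to 666.9, 675.8, 751.2 and 763.1 in V338Y (-0.23 ± 0.06), with no overlap between the ages. Amph (amphiphysin), which recruits dynamin, fell in both (-0.35 ± 0.04 and -0.30 ± 0.05). Synj1, the lipid phosphatase that uncoats vesicles, rose by 8.76% in wild type (0.12 ± 0.04), a sign that turned to -0.02 when trends on GC content and gene length were removed, and Sh3gl2 (endophilin A1), which bends the membrane, did not pass (0.09 ± 0.08).

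The 4 V338Y 3m mice allow a look at the age effect with and without cerebellum transcripts, since mouse 14 had few. Of the 17 genes that fell in V338Y, mouse 14 was above all 4 V338Y 19m mice for 16 and within their range for Slc32a1, and for the 4 that rose it was below all 4. The fit that called these 21 genes held mouse 14 and the same old mice. Its side of them, and the calls kept below, were therefore partly given by the choice of genes. Among the genes not called, mouse 14 was above the old mice for 12, below for 2 and within their range for 6. The share of all genes for which mouse 14 lay outside the old range was not determined. These counts therefore have no background to be read against. When mouse 14 was the only library of 3 months (an alternative chosen after seeing the data, in which this lone library is assumed to vary like the 4 old ones), 24 of the 41 genes were called lower and 4 higher, beside 22.6% and 23.2% of all 16858 genes tested in that fit. Of the 21 genes called with all 8 mice, 18 kept their call and direction. Rab3a was then at -0.72, Synpr at -0.65, Nsf at -0.50, Bsn at 0.76, Pclo at 0.76 and Sv2c at 0.95. The other 3 lost it: Syt2 (-0.10, adjusted p = 0.246), Rims2 (-0.05, adjusted p = 0.465) and Slc32a1 (-0.03, adjusted p = 0.771). The same 3 were the genes whose sign turned in V338Y when the cerebellum marker level entered the fit as a covariate (0.13, 0.12 and 0.01). Another 13 kept their call there. The remaining 5 kept their sign without passing: Bsn (adjusted p = 0.208), Pclo (0.094), Syn1 (0.239), Snap25 (0.0646) and Rab3c (0.136). Only mouse 14 among the young V338Y libraries had a marker level near the old ones. The covariate fit thus rests largely on mouse 14 too and is no separate evidence. Mouse 14 was low in brainstem as well as cerebellum markers, the 2 cannot be told apart in 1 library, and Slc32a1 also lost its call in 5 of the 8 fits that left out 1 mouse. Mouse 14 also had the highest summed markers of neurons at large of all 16 libraries, 4890 CPM. Its cortical excitatory markers, 1110 CPM, were the highest at 3 months. It had the highest value of its group for 18 of the 41 genes. The part of these differences in its distance from the old mice was not tested. In wild type all 4 young libraries held cerebellum transcripts and no old one did at a like level, so marker level and age cannot be told apart there. With the covariate in the fit, 2 of the 41 genes were called (Stx1a lower and Rims2 higher) and 118 of all genes.

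**Figure D3:**
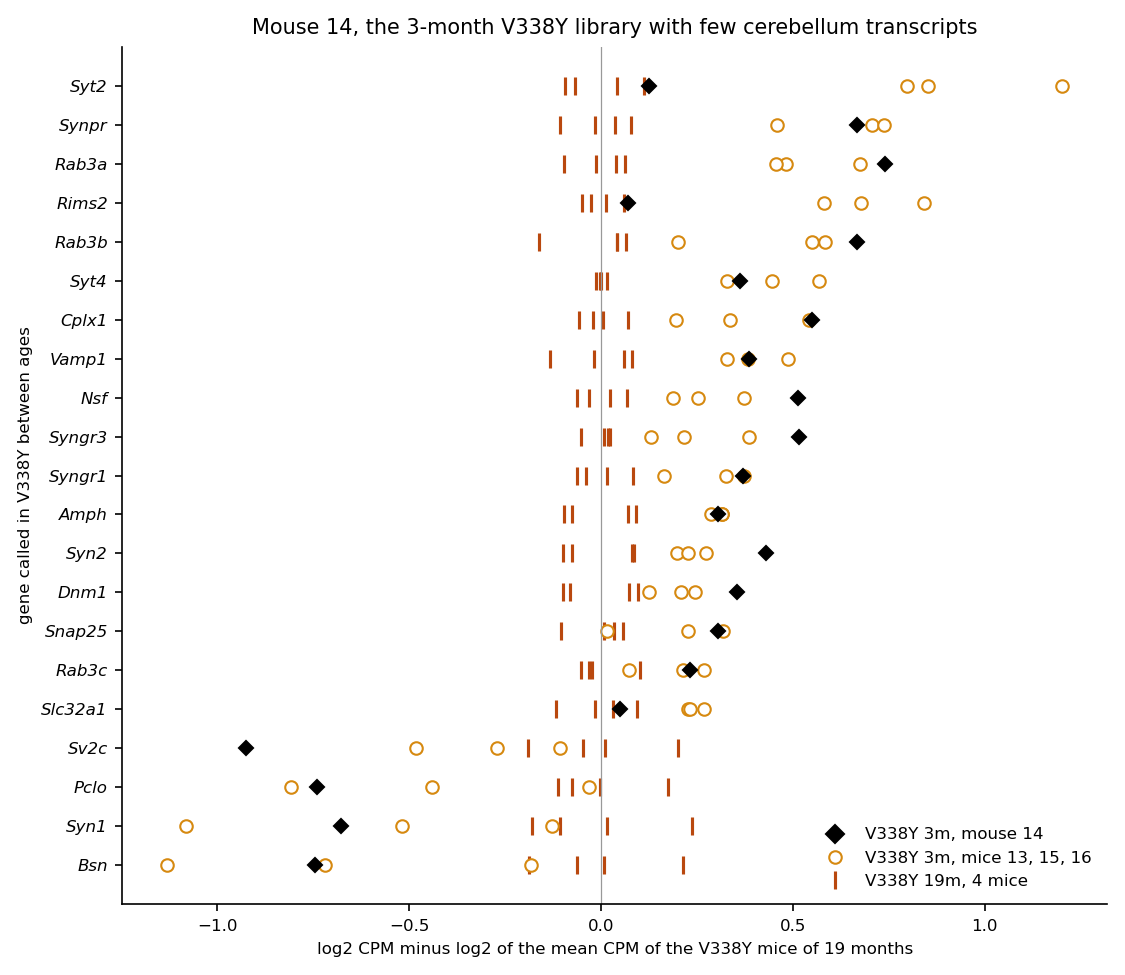
The 21 genes called with age in V338Y, one row a gene; the x axis is log2 CPM minus the log2 of the mean CPM of the V338Y 19m mice, with black diamonds for mouse 14, open circles for the other V338Y 3m mice and ticks for the V338Y 19m mice. The diamond lies beside the ticks for Syt2, Rims2 and Slc32a1, with 113.8, 195.3 and 71.06 CPM, and with the open circles or beyond them for the other 18.

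Another V338Y 3m library, mouse 15, set the spread of the rising genes. It had the highest value of its group for 16 of the 41 genes, among them Bsn, Pclo, Syn1, Sv2c, Vamp2, Cplx2 and Rph3a, and it had the highest cerebellum marker level, 1820 CPM. Without mouse 15, 27 genes were called in V338Y, 7 of them higher, against 15 without mouse 17 or without mouse 19 and 17, none of them higher, without mouse 20, which had the highest value of V338Y 19m for 26 genes. The calls over all genes moved the same way. Without mouse 15 they were 8573 of 16690, 4205 of them higher. Without mice 17 and 19 they were 7199 of 16742 and 7122 of 16578, and without mouse 20 they were 7013 of 16637, 3428 of them higher. The V338Y rises of Bsn, Pclo, Syn1 and Sv2c were lost in 2, 5, 6 and 5 of the 8 fits that left out 1 mouse, and of the falls only those of Snap25, Slc32a1 and Rab3c were lost in any (5, 5 and 2). In wild type only Sv2a and Rims1 lost their call in any such fit (7 and 3 of 8).

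At 19 months V338Y mice had slightly higher levels of 2 release genes than wild-type mice, and no gene of the list was called lower. Dnm1 was at 666.9, 675.8, 751.2 and 763.1 CPM in V338Y 19m and at 620.2, 608.6, 667.1 and 618.1 in WT 19m, 11.9% higher (0.16 ± 0.04, adjusted p = 0.0245), with the lowest V338Y mouse just under the highest wild-type one. Syt2 was at 97.83, 107.4, 112.9 and 99.62 against 96.3, 94.13, 82.46 and 80.0 CPM, 16.1% higher with no overlap (0.22 ± 0.05, adjusted p = 0.0261). These 2 were 4.88% of the 41 genes, beside 3.12% of all 16420 genes tested. Dnm1 lost its call in 5 and Syt2 in 4 of the 8 fits without 1 mouse, and neither was called when all 16 libraries shared 1 fit. Brainstem marker levels were also higher in V338Y 19m (1.29 to 4.12 CPM) than in WT 19m (0.319 to 0.818), and their part in the Syt2 difference was not tested. Next in order of p were Syn2 (0.14 ± 0.04, adjusted p = 0.0529) and Cplx1 (0.13 ± 0.04, adjusted p = 0.0566), which did not pass. The log2 fold change was positive for 29 of the 41 genes and its median 0.07, against -0.0007 over all genes. Among the 12 negative ones Synpr had -0.12 ± 0.05 (adjusted p = 0.156). For 79 other presynaptic genes, described below, the shift was smaller, with 45 positive, 34 negative and a median of 0.01. Marker lists moved as well. The log2 fold change was positive for 9 of the 11 markers of neurons at large (median 0.05, 2 called higher). It was negative for 6 of 7 astrocyte markers (1 called lower), 6 of 7 microglia markers (2 called lower) and 5 of 6 meninges markers (3 called lower and 1 higher). Other lists of neurons and glia varied. Cortical excitatory markers were positive for 5 and negative for 4 (median 0.006, 0 called), and striatum markers were negative for 6 of 7 (0 called). Interneuron markers were positive for 5 of 7 and oligodendrocyte markers for 6 of 8, each with 1 called higher. The part of these markers in the shift of the 41 genes was not tested.

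**Figure D4:**
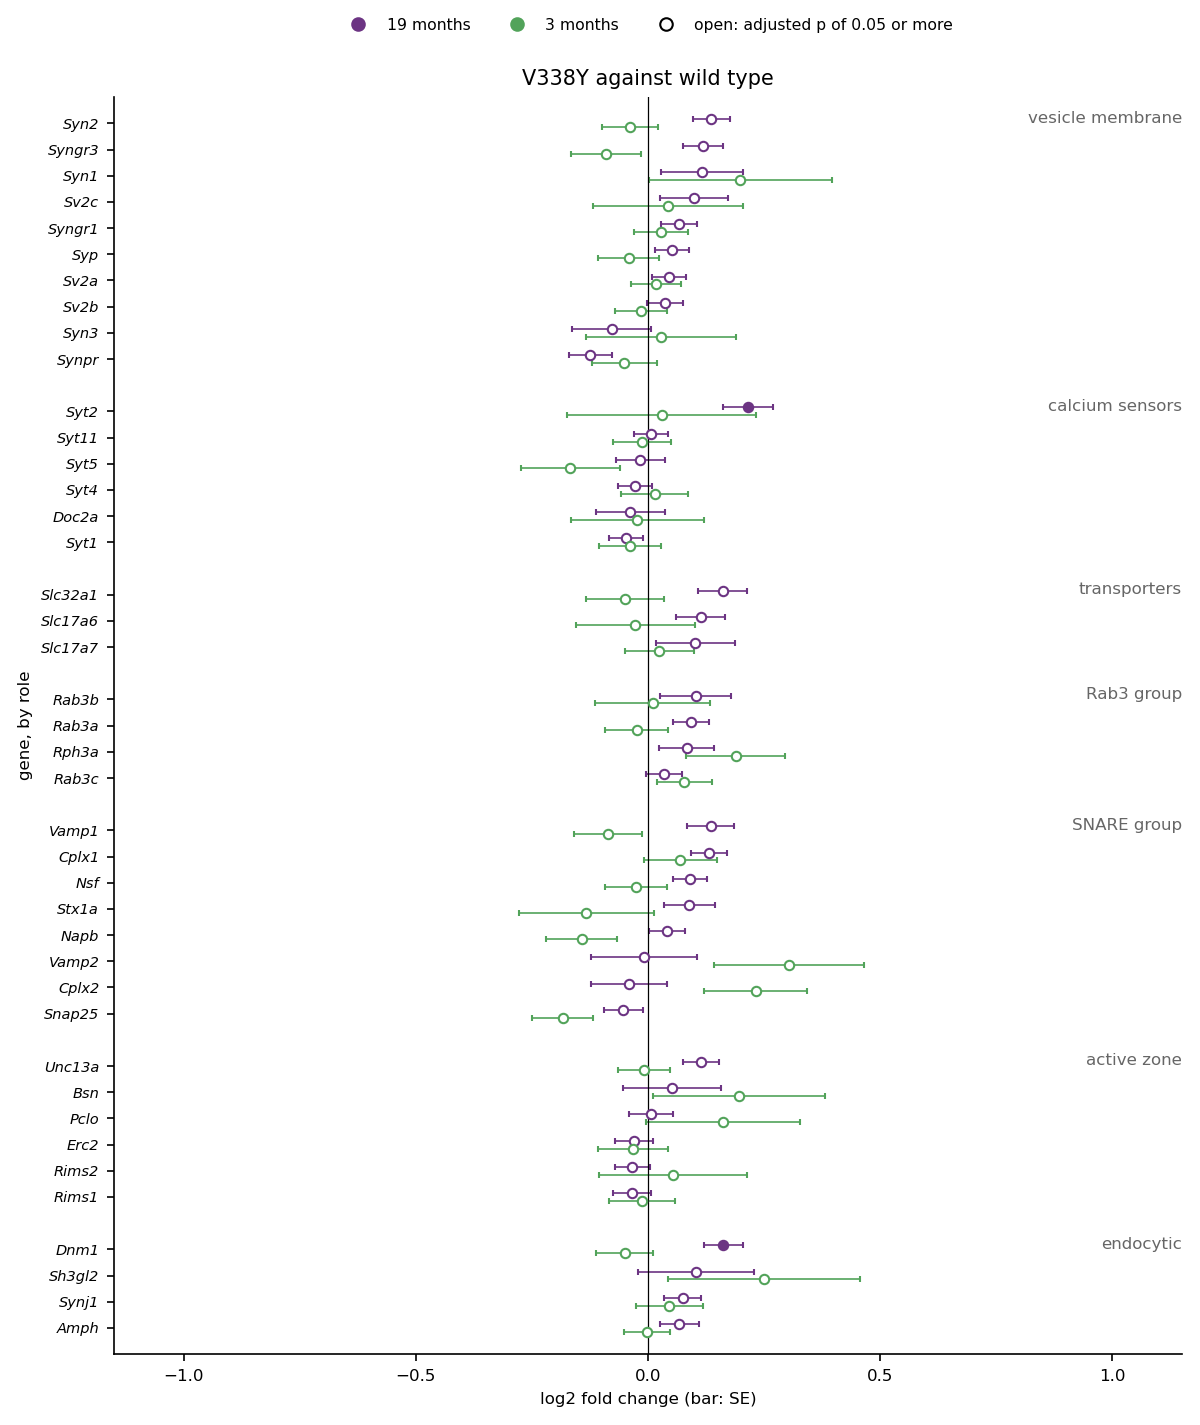
Log2 fold changes of the 41 genes in V338Y against wild type at 19 months (purple) and at 3 months (green), grouped by role, with bars of 1 SE; filled points have an adjusted p under 0.05. Filled points are Dnm1 at 0.16 and Syt2 at 0.22, both at 19 months, and the bars are wider at 3 months, with a median SE of 0.0751 against 0.0418.

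At 3 months 0 of the 41 genes differed between the genotypes by edgeR, DESeq2 or the likelihood-ratio test, and 0.0616% of all 16241 genes did. A single member, Snap25, had an unadjusted p under 0.05 by edgeR, beside 815 of the 16241 genes. Snap25 was lower by 12% in V338Y 3m (-0.18 ± 0.07, adjusted p = 0.926) and its groups did not overlap. The SE was between 0.0495 and 0.207, and for Syt2, with 0.03 ± 0.20, it was close to the size of the difference seen at 19 months, so that such a difference was not detectable for the genes with the widest spread.

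The interaction of age and genotype had its smallest p for Dnm1 (0.22 ± 0.08, adjusted p = 0.363), followed by Vamp1 (0.23 ± 0.10, adjusted p = 0.42), Syn2 (0.18 ± 0.08, adjusted p = 0.43), Syngr3 (0.22 ± 0.09, adjusted p = 0.444) and Napb (0.19 ± 0.09, adjusted p = 0.488). These 5 genes fell in wild type, with log2 fold changes of -0.43, -0.59, -0.44, -0.51 and -0.35, and stood nearer to 0 in V338Y, at -0.23, -0.39, -0.28, -0.31 and -0.18. The comparisons share libraries, since the WT 19m mice enter both the wild-type age effect and the genotype effect at 19 months, and the 4 values of a gene are not independent of each other. None of the 41 interactions passed the test over all genes.

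Ratios of related genes within a library do not depend on the scaling between libraries, and 7 pairs were compared in 4 comparisons, 28 tests in all by a two-sided exact permutation test, which cannot go below p = 0.0286 with 4 against 4 mice. The log2 ratio of Vamp1 to Vamp2 went from 0.83 ± 0.11 (SD, n = 4) in WT 3m to -0.18 ± 0.18 in WT 19m, and that of Cplx1 to Cplx2 from -0.02 ± 0.10 to -0.87 ± 0.05. The groups were apart in both cases (exact permutation p = 0.0286 each, adjusted p = 0.114). In V338Y the same ratios were 0.48 ± 0.35 against -0.02 ± 0.22 and -0.17 ± 0.33 against -0.70 ± 0.17, and the ages overlapped. Rims1 to Rims2 went from 0.28 ± 0.10 to 0.62 ± 0.07 in wild type and from 0.23 ± 0.20 to 0.62 ± 0.05 in V338Y, and Syt2 to Syt1 from -2.70 ± 0.07 to -3.74 ± 0.14 and from -2.68 ± 0.59 to -3.47 ± 0.09. Mouse 14 was near the old mice in the pairs with Syt2 (-3.51) and Rims2 (0.52) and near its own age in Vamp1 to Vamp2 (0.53) and Cplx1 to Cplx2 (-0.01). Syt2 to Syt1 was also apart between the genotypes at 19 months (0.27 higher in V338Y), and Sv2b to Sv2a was level in all groups, with means between 0.21 and 0.25. The adjusted p was 0.114 or more for all 28.

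**Figure D5:**
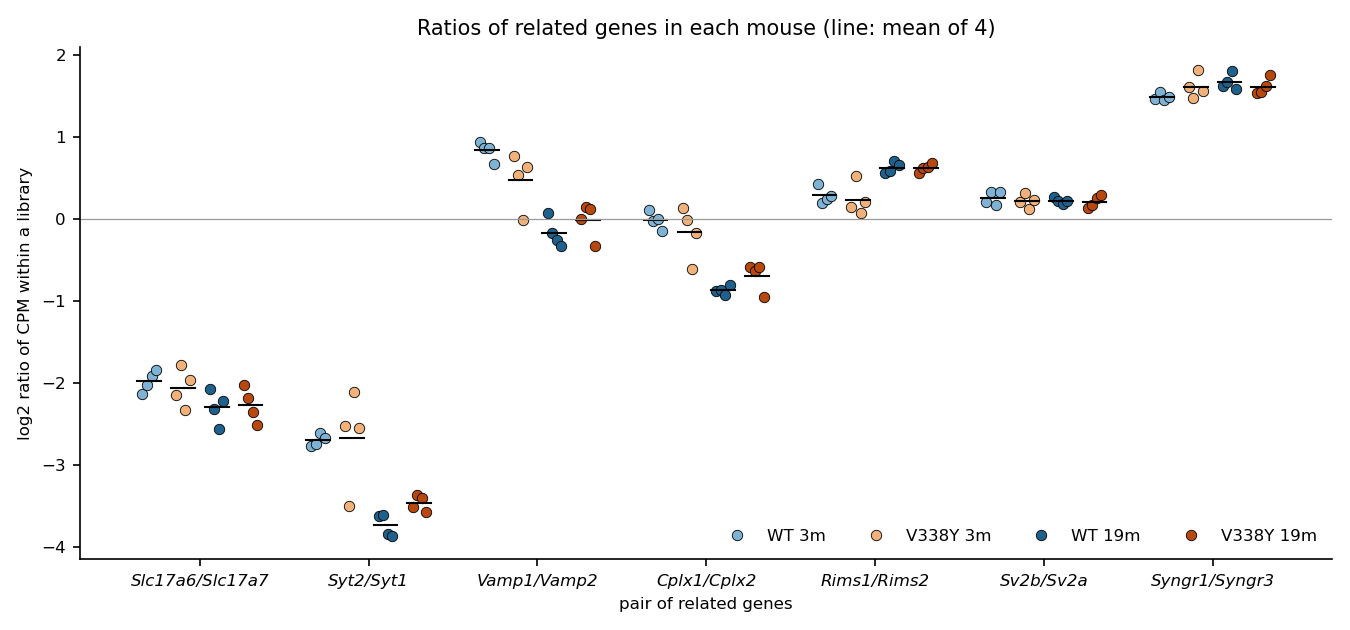
Log2 ratio of CPM for 7 pairs of related genes in each mouse, by group, with a line at the mean of 4. In wild type the Vamp1/Vamp2 points go from a mean of 0.83 at 3 months to -0.18 at 19 months and the Cplx1/Cplx2 points from -0.02 to -0.87, while the Sv2b/Sv2a points stay between 0.1 and 0.4.

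Outside the list, 79 further presynaptic genes could be tested, of the families of syntaxins, clathrin adaptors, liprins, further synaptotagmins and others. In wild type 44 were lower and 17 higher with age (55.7% and 21.5%, beside 31.5% and 31.4% of all genes), with a median log2 fold change of -0.17, and in V338Y 35 and 11 (44.3% and 13.9%, beside 25.7% and 23.1%), with a median of -0.14. The largest falls were those of Slc18a2, the vesicular transporter of monoamine neurons (-1.41 ± 0.13), and the complexin Cplx3 (-0.99 ± 0.14) in wild type and of the liprin Ppfia4 (-1.10 ± 0.21) and Cplx3 (-0.93 ± 0.18) in V338Y. With mouse 14 as the only young library, Ppfia4 was at -0.45. Ston1, a stonin of the endocytic machinery (2.29 ± 0.21 and 1.5 ± 0.23), and Syngr2, a synaptogyrin found outside neurons (1.08 ± 0.11 and 0.90 ± 0.11), rose most in both, and endothelium markers rose with them from 201 to 213 CPM at 3 months to 833 to 1020 at 19 months. At 19 months 1 of the 79, or 1.27% beside 3.12% of all genes, differed between the genotypes, Snap23, which was lower in V338Y (-0.33 ± 0.07, adjusted p = 0.00828).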

How the data were processed

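The deposited table holds estimated counts of reads per gene for 16 libraries, made by the authors from stranded mRNA libraries and given as whole numbers with at most 4 significant digits. The study names RSEM as the counter and another mouse build, whereas the submitters' processing notes list bcl2fastq 1.8.4, STAR 2.4.2a, featureCounts and GRCm38, so the counter and its strand setting are uncertain. Symbols and positions came from the GENCODE annotation of GRCm38, which gave a symbol to 37607 of 39179 identifiers, and promoters from RefSeq (GRCm38.p6).

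A gene entered a test when 10 or more counts were present in a share of 0.5 or more of the mice in one of the groups. Each comparison of 4 against 4 mice was fitted with edgeR 4.0.16 (TMM, robust quasi-likelihood F test, R 4.3.3), and the interaction of age and genotype was fitted over all 16 libraries. P-values were adjusted by Benjamini-Hochberg over all genes tested, with a threshold of 0.05. An error after ± is the SE of a log2 fold change, taken from the estimate and its F value, unless SD is written. DESeq2 1.42.0 and other normalisations, filters and tests were tried as alternatives, and the script was tested on simulated data. Log2 ratios used CPM with a prior count of 2 and an exact permutation test (SciPy 1.17.1). Depth was 6181448 to 19601664 counts per library, and the lowest count of a member in any library was 109 (Rab3b).

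Values in every mouse are given for the 4 largest rises and falls among the called genes in each age comparison, the genes called between genotypes, and the gene with the highest CPM per kb in each role class, and of other presynaptic genes the 2 largest rises and falls are named. Snap23 was named after its value was seen. The members and lists were chosen with earlier results of these data known.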

Additional observations from a re-analysis of the deposited data

Results flagged for a closer look

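Single mice stood apart from the other 3 of their group, by the gap to the nearest mouse relative to the range of the group (Dixon's test at 95%), in 8 of the 164 groups of gene levels and 28 groups of ratios examined, where chance gives about 5%. On the log2 CPM scale, Erc2 was at 7.67 in WT 3m mouse 10 (the others 7.55 to 7.57) and at 7.58 in WT 19m mouse 15 (7.44 to 7.46). Rims1 was at 8.21 in WT 3m mouse 9 (8.35 to 8.38), Syngr1 at 8.78 in WT 3m mouse 10 (8.71 to 8.72) and Unc13a at 8.43 in WT 3m mouse 12 (8.51 to 8.52). Slc32a1 was at 6.07 in WT 19m mouse 15 (5.88 to 5.9) and Rab3b at 4.31 in V338Y 19m mouse 18 (4.51 to 4.53). The log2 ratio of Cplx1 to Cplx2 was -0.95 in V338Y 19m mouse 20, against -0.64 to -0.59 in the other 3.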

How the results depend on the processing

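Of the 41 genes, 34 were called with age in wild type, and 31 to 36 under the alternatives other than the cerebellum marker covariate, which left 2. With that covariate the sign turned in wild type for Bsn (-0.21), Rab3b (1.88), Rims1 (0.76), Rims2 (1.89), Slc17a6 (0.044), Sv2b (0.15), Sv2c (-0.88), Syn1 (-0.93), Synj1 (-0.37), Syt4 (1.17) and Vamp2 (-0.39). In V338Y it turned for Rims2 (0.12), Slc32a1 (0.01) and Syt2 (0.13). Outside the 41 genes, the sign of Cplx3 also turned in wild type (0.65). Synj1 in wild type also turned (-0.021) when trends on GC content and length were removed. Leaving out 1 mouse gave 32 to 35 calls in wild type and 15 to 27 in V338Y, where the main count was 21. Over all genes these fits gave 9340 to 9986 calls in wild type and 7013 to 8573 in V338Y, against 10115 and 8181 in the main fits. In V338Y the 4 rises were not called with no filter on counts, and 1 rise and 23 falls were called with library size only. The 2 calls between genotypes at 19 months became 6 with library size only, 4 with at least 10 counts in every library, 6 with no filter, 1 with the likelihood-ratio test, 0 with the covariate and 0 with all 16 libraries in one fit, and 0 to 3 without 1 mouse (0 without V338Y 19m mouse 19). The cause of these changes was not tested. With library size only, the split over all genes in wild type was 4175 higher and 6321 lower against 5050 and 5065, with the median of all genes moved to -0.10; between genotypes at 19 months it was 357 higher and 263 lower, and 381 and 410 with no filter, against 196 and 316. All-gene calls at 19 months were 84 with the covariate and 116 with all libraries in one fit. No paired analysis was possible because each of the 16 libraries came from a different mouse, killed at 3 or at 19 months.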
